A study of Rattus norvegicus with 24 samples.

Results

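The dorsolateral striatum of adult male rats that had been stressed around puberty was compared according to whether their mothers had received lipopolysaccharide (LPS) or saline in pregnancy. The members are the stressed dorsolateral striatum libraries, taken by their labels, and they are 6 of the 24 RNA-seq libraries of the series. The LPS stressed group held 3 libraries from Sprague-Dawley males whose dams were injected with LPS, a bacterial cell-wall component that triggers an innate immune response, on gestational days 15 and 16. The saline stressed group held 3 libraries from males of the same strain whose dams were given saline on the same days. Both groups went through unpredictable stress in adolescence, and bulk tissue was taken at postnatal day 90. LPS unstressed and saline unstressed groups, with 3 dorsolateral striatum libraries each, came from handled offspring and are used for comparison, as are the stressed libraries of the nucleus accumbens, a ventral striatal region. The labels tie no library to a litter or to a rat, so p-values measure only the spread between these libraries, which may share dams.

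The striatum is built mainly from GABAergic projection neurons, which fall into a direct pathway marked by the dopamine receptor gene Drd1 and the peptide genes Tac1 and Pdyn, and an indirect pathway marked by Drd2, Adora2a and Penk. Its dorsolateral sector is known for its part in habit learning. LPS acts through Toll-like receptor 4 on immune cells of the dam, and maternal immune activation is widely used in rodents as a model of prenatal infection. The comparison asks how the prenatal exposure relates to the adult striatal transcriptome among animals that also met a later stressor.

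The deposited table lists 17303 genes in FPKM whose decimal point was lost, so that only the digits remain. The gene Pemt, for example, read 394086, 331383 and 315335 in the LPS stressed libraries, against 182593, 131074 and 23213 in the saline stressed libraries. Ratios within a gene were read where the digits of all libraries of the region fit a 3.162-fold range, up to powers of 10. This held for 9275 of the 12091 genes above 1 in all 12 dorsolateral striatum libraries. The libraries were taken to lie within that range, and a change near 10-fold would be read as a small one. Values below are therefore relative log2 expression, with the mean of the saline stressed libraries of that gene set to 0; a level of 1 is a doubling, and no level is compared between genes. Whole fragment numbers were recovered for 7838 genes, of which 6198 had a clear solution. On that scale the depth relative to saline stressed replicate 3 was 0.746, 0.654 and 0.982 in LPS stressed replicates 1 to 3, and 0.509, 0.708 and 1 in saline stressed replicates 1 to 3. Genes listed as 1, which carry no assigned fragment or a failed estimate, numbered 4047 to 4315 in LPS stressed libraries and 4036 to 4463 in saline stressed libraries.

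The defining striatal genes Drd1, Drd2, Adora2a, Penk, Pdyn, Tac1 and Ppp1r1b were above 1 in all 6 libraries. Markers of neighbouring tissue set 2 LPS stressed libraries apart. Among the 10 cortical and pallial neuron markers with recovered fragments, of 13 in the table, LPS stressed replicate 3 carried the most fragments of the 6 libraries for 8. Their summed fragments were at least 221, 209 and 2072 in LPS stressed replicates 1 to 3, and at least 128, 455 and 451 in saline stressed replicates 1 to 3. Neurod1, a transcription factor of pallial glutamatergic neurons, had 0, 0 and 18 fragments in the LPS stressed libraries, against 0, 1 and 0 in the saline stressed libraries.

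Ependymal and choroid plexus markers pointed to another library. Among the 10 with recovered fragments, of 16 in the table, LPS stressed replicate 1 carried the most for 7. Their sums were at least 1353, 219 and 75 fragments in LPS stressed replicates 1 to 3, and at least 60, 36 and 486 in saline stressed replicates 1 to 3. Rsph1, a gene of motile cilia, had 267, 26 and 14 fragments in the LPS stressed libraries, against 11, between 8 and 80, and 62 in the saline stressed libraries. Of the choroid plexus genes, Folr1 had 84, 24 and 5 fragments in the LPS stressed libraries. In the saline stressed libraries it had 4, between 1 and 10, and 43. Clic6 and Kcnj13 were also highest in LPS stressed replicate 1, whereas Kl, Slc4a5 and Sostdc1 were not. Otx2 and Prlr were listed as 1 in all 12 dorsolateral striatum libraries, so they cannot tell these libraries apart. The part of these cells in the differences below was not tested, and differences are given without LPS stressed replicate 1 and without replicate 3 where those values bear on them.

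No gene passed the test between LPS stressed and saline stressed dorsolateral striatum after correction. By limma's test with Benjamini-Hochberg adjustment over 9275 genes, 0 genes (0%) had an adjusted p below 0.05, and the smallest adjusted p was 0.9995. At an unadjusted p below 0.05 there were 271 genes (2.92%), of which 118 (1.27%) lay higher and 153 (1.65%) lower in the LPS stressed libraries. That unadjusted count was 419 without LPS stressed replicate 1, 361 without replicate 3 and 285 without both, again with 0 genes after limma's adjustment in each case. Among the genes tested, 81.6% had a difference within 0.25 of 0 on the log2 scale, 184 exceeded 0.5 in either direction, and none exceeded 1. These sizes are capped by the 3.162-fold limit on tested genes. The 2816 genes above 1 in all 12 libraries that fell outside it are not counted. Over the 6 stressed libraries alone 2078 genes fell outside, of which 5 had each group within 1.585-fold. For a typical gene the 95% interval, not corrected for the number of genes, reached 0.42 to either side of the difference with 3 libraries a group. Larger changes could also go undetected after adjustment. The largest difference among tested genes, 0.96, had an adjusted p of 0.9995 by limma. All 3 LPS stressed libraries lay above all 3 saline stressed libraries for 228 genes (2.46%) and below them for 279 genes (3.01%), 507 genes (5.47%) in all. Where whole fragments could be recovered, limma-voom on 5858 genes gave 0 genes (0%) at an adjusted p below 0.05 and 137 (2.34%) at an unadjusted p below 0.05.

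The genes named first below are the 12 higher and the 12 lower genes with the smallest p among those with a proper symbol. They were picked for that difference, so their values are a description and carry no weight beyond the adjusted p, which was 0.9995 or more for each by limma. All 24 kept their direction, and an unadjusted limma p below 0.05, without LPS stressed replicate 1 and likewise without replicate 3. Because the genes were chosen on these same libraries, that outcome is largely fixed by the choice and is no independent support.

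Pemt, which encodes the enzyme that methylates phosphatidylethanolamine to phosphatidylcholine, had the smallest p and the largest difference in either direction among the genes tested. Its relative log2 level was 1.15, 0.90 and 0.83 in the LPS stressed libraries, against 0.04, -0.43 and 0.39 in the saline stressed libraries. All 3 LPS stressed libraries lay above all 3 saline stressed ones, and the saline stressed libraries were the more spread, with an SD of 0.41 against 0.17 in the LPS stressed group. The difference was 0.96 (SE 0.19), a 1.95-fold higher mean (limma, unadjusted p = 0.00022). The locus spans 46096651 to 46161545 on chromosome 10 in the deposited table, a table that names no genome build. Among the 21 tested genes of the lipid and phospholipid synthesis list, Pemt was the only gene at an unadjusted p below 0.05; 8 lay higher and 13 lower, with a median of -0.04.

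Epb4.1l5, a FERM-domain protein gene linked to cell polarity and adhesion, had levels of 0.77, 0.54 and 0.72 in the LPS stressed libraries, against -0.13, -0.13 and 0.26 in the saline stressed libraries. The groups did not overlap, and the difference at this locus, 40736724 to 40787937 on chromosome 13 of the deposited table, was 0.68 (SE 0.15; limma, unadjusted p = 0.00066). Its recovered fragments, divided by relative depth, were 84.4, 71.9 and 81.5 in LPS stressed libraries, against 45.2, 45.2 and 59.0 in saline stressed libraries. Krt1, an epidermal keratin gene whose listed locus overlaps 6 others, had 53.6, 85.6 and 63.2 scaled fragments in the LPS stressed libraries, against 39.3, 36.7 and 28.0 in the saline stressed libraries. Its log2 difference was 0.95 (SE 0.27), and because of the overlap the source of its fragments is uncertain. Prkcd, which encodes the delta isoform of protein kinase C, had 426.2, 484.8 and 327.0 scaled fragments in the LPS stressed libraries, against 273.4, 196.2 and 219.0 in the saline stressed libraries. The lowest LPS stressed library of Prkcd was replicate 3, and the highest saline stressed library was replicate 1; the log2 difference was 0.84 (SE 0.27).

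**Figure D1:**
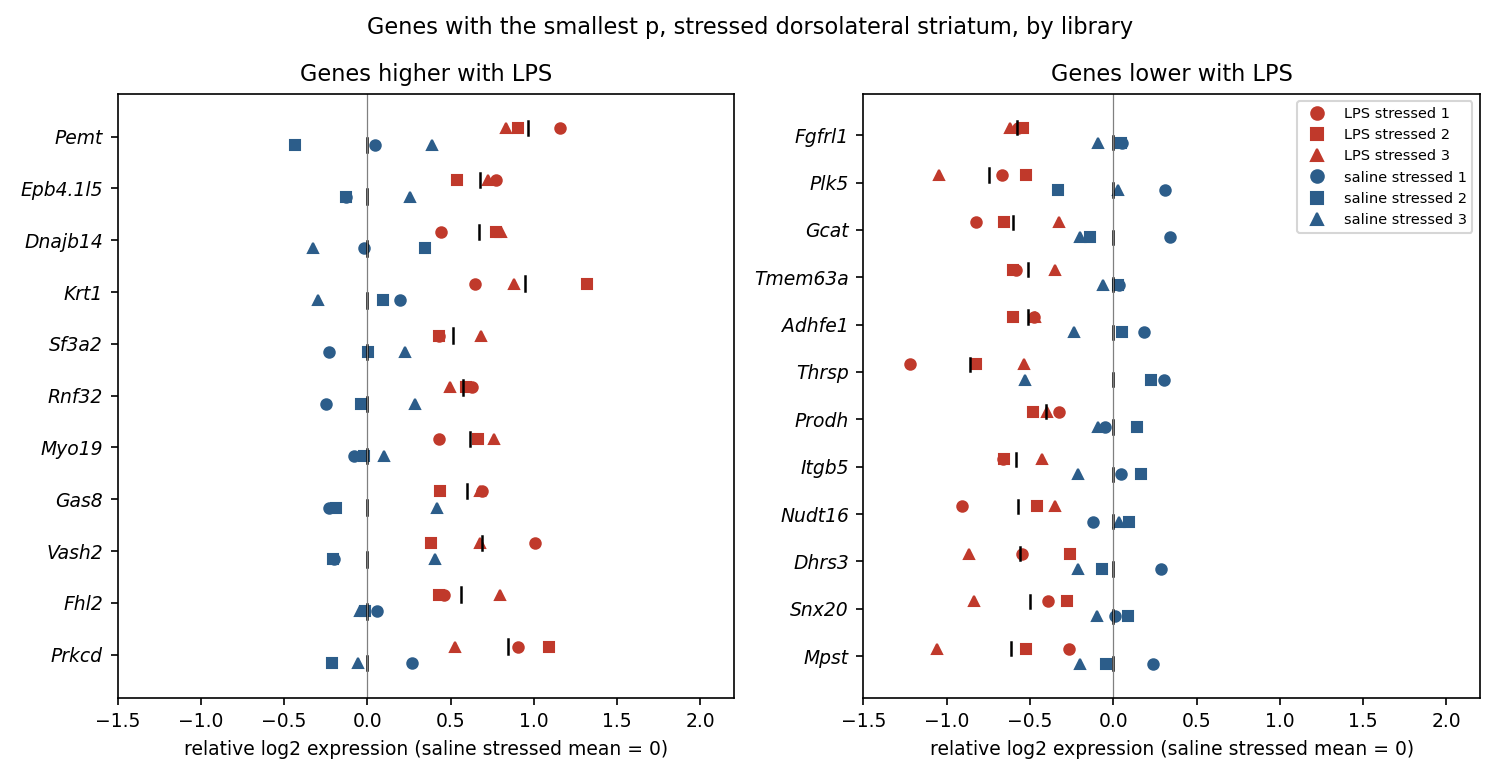
Relative log2 expression (horizontal axis, saline stressed mean set to 0) of 11 higher (left) and 12 lower (right) genes among those with the smallest p in the 6 stressed dorsolateral striatum libraries. Symbols are libraries, red for LPS stressed and blue for saline stressed, and black ticks are group means; the groups overlapped in Vash2 and in no other gene plotted.

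The other higher genes had differences between 0.51 and 0.69. Dnajb14, a co-chaperone of the endoplasmic reticulum membrane, had levels of 0.44, 0.77 and 0.80 in LPS stressed libraries, against -0.02, 0.35 and -0.33 in saline stressed libraries, a difference of 0.67 (SE 0.18). Myo19, a myosin that binds mitochondria, had 0.43, 0.67 and 0.76 in LPS stressed libraries, against -0.08, -0.02 and 0.10 in saline stressed libraries. The groups of both genes were apart, with the smaller gap in Dnajb14, between LPS stressed replicate 1 and saline stressed replicate 2.

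Gas8, a subunit of the dynein regulatory complex of motile cilia, had levels of 0.69, 0.44 and 0.67 in LPS stressed libraries, against -0.23, -0.19 and 0.42 in saline stressed libraries. LPS stressed replicate 1, the library with the most fragments of motile cilia markers, was its highest library; without it the difference was 0.56, against 0.60 with it. Vash2, a tubulin carboxypeptidase gene, had 1.01, 0.38 and 0.67 in LPS stressed libraries, against -0.20, -0.21 and 0.41 in saline stressed libraries, and the groups overlapped between LPS stressed replicate 2 and saline stressed replicate 3. The splicing factor gene Sf3a2 differed by 0.51 (SE 0.15), the ring finger gene Rnf32 by 0.57 (SE 0.17) and the LIM-domain adaptor gene Fhl2 by 0.56 (SE 0.18), each with all 3 LPS stressed libraries above the saline stressed ones.

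Among the lower genes Fgfrl1, a fibroblast growth factor receptor-like gene without a kinase domain, had the smallest p. Its levels were -0.58, -0.54 and -0.62 in the LPS stressed libraries, against 0.05, 0.04 and -0.09 in the saline stressed libraries. The gap between the groups was wider than the range within either, and the difference was -0.58 (SE 0.13; limma, unadjusted p = 0.001). Its locus in the deposited table spans 2015650 to 2027710 on chromosome 14. In scaled fragments it had 207.7, 212.6 and 201.7 in LPS stressed libraries, against 320.6, 319.0 and 290.0 in saline stressed libraries.

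The promoters of Pemt and Fgfrl1 are shown because these genes had the smallest p in each direction, and that of Nr4a1, an immediate early gene described further below, because its transcription is known to follow cAMP signalling. Each line gives 250 bases upstream of the start from RefSeq on build GRCr8, 5′ to 3′ on the gene's strand. Capitals mark TGACG, the core of the cAMP response element, or its reverse complement CGTCA.
Pemt (chr10:45341948-45342197, minus strand): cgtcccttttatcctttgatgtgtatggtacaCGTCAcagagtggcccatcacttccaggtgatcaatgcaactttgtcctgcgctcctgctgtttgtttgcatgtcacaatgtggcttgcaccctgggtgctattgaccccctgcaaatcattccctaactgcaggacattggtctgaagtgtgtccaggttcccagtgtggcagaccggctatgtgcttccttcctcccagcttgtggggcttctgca
Fgfrl1 (chr14:1166335-1166584, minus strand): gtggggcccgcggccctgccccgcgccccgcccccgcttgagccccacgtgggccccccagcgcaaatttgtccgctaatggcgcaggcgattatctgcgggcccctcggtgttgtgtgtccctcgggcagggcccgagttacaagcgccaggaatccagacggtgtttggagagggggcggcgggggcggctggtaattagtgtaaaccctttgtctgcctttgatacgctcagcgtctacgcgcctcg
Nr4a1 (chr7:134259888-134260137, plus strand): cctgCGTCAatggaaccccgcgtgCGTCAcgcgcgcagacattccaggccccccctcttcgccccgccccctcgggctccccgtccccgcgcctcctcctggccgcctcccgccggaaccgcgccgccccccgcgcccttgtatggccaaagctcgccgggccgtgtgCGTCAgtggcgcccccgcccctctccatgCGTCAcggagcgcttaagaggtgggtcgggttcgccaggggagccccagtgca
TGACG on either strand was present once in the Pemt window, 218 bases before the start, and 4 times in the Nr4a1 window, at 246, 226, 82 and 53 bases before it. The Fgfrl1 window held no match. Of all 33469 rat promoter windows of this length 6097 (18.2%) held TGACG, and 531 (1.59%) held the full element TGACGTCA, which contains the core on both strands. Of the 100 genes named by rule, 60 were matched to a single window, and 18 of those windows held TGACG. A match describes letters only and is no evidence of a bound site.

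The other lower genes encode proteins of different kinds. Prodh, proline dehydrogenase, had levels of -0.33, -0.48 and -0.40 in LPS stressed libraries, against -0.05, 0.14 and -0.09 in saline stressed libraries. Gcat, an enzyme of threonine and glycine metabolism whose locus overlaps 2 others, had -0.82, -0.65 and -0.32 in LPS stressed libraries, against 0.34, -0.14 and -0.20 in saline stressed libraries. Mpst, a sulfurtransferase that produces hydrogen sulfide, had -0.27, -0.53 and -1.06 in LPS stressed libraries, against 0.24, -0.04 and -0.20 in saline stressed libraries. The groups of these 3 genes did not overlap, but LPS stressed replicate 3 carried much of the Mpst value, whose difference was -0.62 with it and -0.40 without it. Adhfe1, a hydroxyacid-oxoacid transhydrogenase, differed by -0.51 (SE 0.15).

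Thrsp, a gene tied to fatty acid synthesis, had the largest difference of the 12 lower genes, -0.86 (SE 0.25). Its levels were -1.22, -0.83 and -0.54 in LPS stressed libraries, against 0.30, 0.23 and -0.53 in saline stressed libraries, so that replicate 3 of both groups nearly touched. Plk5, a brain-enriched member of the polo-like kinase family, had -0.67, -0.53 and -1.05 in LPS stressed libraries, against 0.31, -0.33 and 0.03 in saline stressed libraries. Dhrs3, a retinaldehyde reductase, had -0.55, -0.26 and -0.86 in LPS stressed libraries, against 0.28, -0.07 and -0.21 in saline stressed libraries. In both genes LPS stressed replicate 3 was the lowest library. Tmem63a, a mechanosensitive ion channel gene, differed by -0.51 (SE 0.14), the integrin subunit gene Itgb5 by -0.58 (SE 0.18), the nucleoside diphosphatase gene Nudt16 by -0.57 (SE 0.17) and the sorting nexin gene Snx20 by -0.50 (SE 0.16), all without overlap between the groups.

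The unstressed groups showed where these differences sat among the 4 groups of the region. For the 118 genes higher at an unadjusted p below 0.05, the saline stressed mean was the lowest of the 4 group means in 108 (91.5%), against 29.2% of all genes tested, and the LPS stressed mean was the highest in 65 (55.1%), against 15.1% of all genes. For the 153 lower genes, the saline stressed mean was the highest of the 4 in 149 (97.4%), against 35.6% of all genes, and the LPS stressed mean was the lowest in 73 (47.7%), against 17.5% of all genes. Because the genes were chosen on the stressed groups, an extreme saline stressed or LPS stressed mean is partly fixed by that choice, and the counts are a description.

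**Figure D2:**
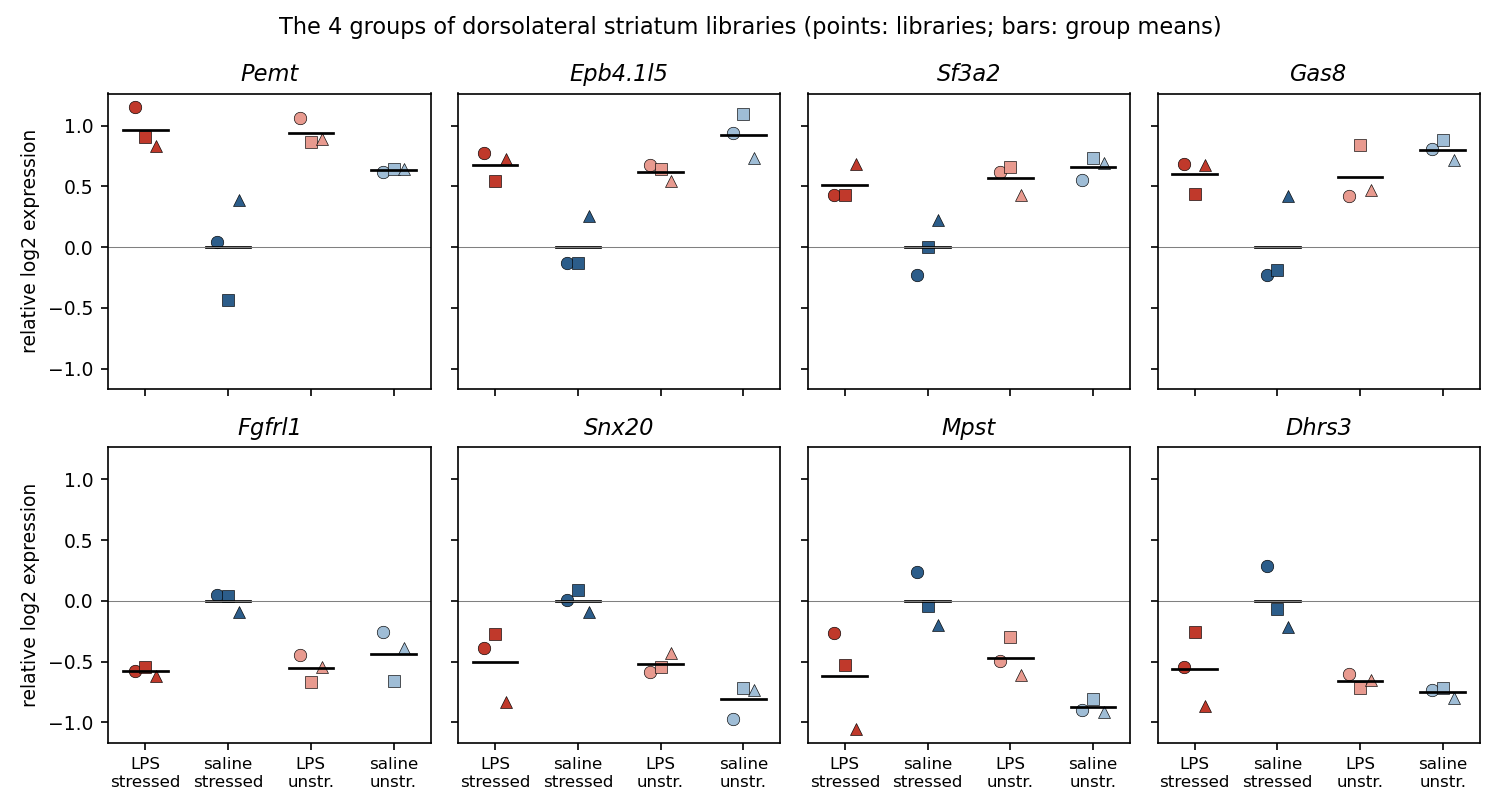
Relative log2 expression (vertical axis, saline stressed mean set to 0) of 8 genes, picked after their values were seen, in the 12 dorsolateral striatum libraries of the LPS stressed, saline stressed, LPS unstressed and saline unstressed groups. Points are libraries and bars group means; in each panel the 3 saline stressed libraries hold the lowest mean (top row) or the highest mean (bottom row), at 0.

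Epb4.1l5 showed this layout clearly: its LPS stressed libraries lay between 0.54 and 0.77, its saline stressed libraries between -0.13 and 0.26, its LPS unstressed libraries between 0.55 and 0.68 and its saline unstressed libraries between 0.73 and 1.09. The saline stressed group lay below the other 3 groups without overlap. LPS minus saline was therefore 0.68 among stressed and -0.30 among unstressed offspring, a difference between the differences of 0.98 (limma, unadjusted p = 0.00058, adjusted p = 0.829). Snx20 and Mpst showed it in the other direction. Mpst had -0.50, -0.29 and -0.61 in LPS unstressed libraries, against -0.90, -0.81 and -0.92 in saline unstressed libraries, a difference of 0.41 beside -0.62 among stressed offspring. Plk5 and Prodh lay lower with LPS in both settings, with LPS minus saline of -0.59 and -0.22 among unstressed offspring beside -0.75 and -0.40 among stressed offspring.

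Among unstressed offspring LPS against saline gave 0 of 9275 genes (0%) at an adjusted p below 0.05 by limma, and 301 (3.25%) at an unadjusted p below 0.05. The test of whether the LPS difference depended on stress also gave 0 genes (0%) after limma's adjustment, with 481 (5.19%) at an unadjusted p below 0.05 and a smallest adjusted p of 0.829. Of the 118 higher genes among stressed offspring, 43 lay higher and 75 lower with LPS among unstressed offspring, and of the 153 lower genes 101 lay higher and 52 lower, beside 4973 higher and 4302 lower of all 9275 genes. Across all 9275 genes the stressed and unstressed differences, which share no library, had a Pearson correlation of -0.28, given as a description since genes are not independent.

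Genes of the indirect pathway lay lower in LPS stressed libraries, and those of the direct pathway lay on both sides of 0, without any member passing limma's adjusted test. All 8 tested indirect-pathway markers, of 10 in the table, lay below their saline stressed mean, with a median difference of -0.27 beside -0.02 over all genes, of which 53.7% lay lower and 46.3% higher. None of the 8 reached an unadjusted limma p below 0.05. In bulk tissue fewer cells of a type and less RNA per cell cannot be told apart. Adora2a, the adenosine receptor gene of indirect-pathway neurons, had levels of -0.83, -0.14 and -0.52 in LPS stressed libraries, against 0.32, 0.02 and -0.34 in saline stressed libraries. LPS stressed replicate 1 was the lowest library and LPS stressed replicate 2 lay within the saline stressed range; the difference was -0.50 (SE 0.23; limma, unadjusted p = 0.053). Penk, the proenkephalin gene, had -0.48, 0.25 and -1.30 in LPS stressed libraries, against 0.28, -0.06 and -0.22 in saline stressed libraries, a difference of -0.51 (SE 0.31) that was -0.11 without LPS stressed replicate 3.

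Drd2, the dopamine receptor of these neurons, had levels of -1.02, -0.20 and 0.08 in LPS stressed libraries, against 0.11, 0.19 and -0.30 in saline stressed libraries. The groups overlapped widely, and the difference of -0.38 (SE 0.30) was -0.06 without LPS stressed replicate 1. Gpr52, an orphan receptor whose locus overlaps 1 other, differed by -0.44 (SE 0.25), and by -0.19 without that library. The median of the indirect-pathway list moved in the same way, to -0.04 without LPS stressed replicate 1, and to -0.26 without replicate 3. Averaged over its 8 tested genes, the list stood at -0.64, 0.02 and -0.21 in LPS stressed replicates 1 to 3, against 0.09, 0.01 and -0.10 in saline stressed replicates 1 to 3. LPS stressed replicate 1, with the most ependymal marker fragments, was thus the library that set the level of the list.

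The direct-pathway list had 6 of 8 tested genes higher and 2 lower, with a median of 0.09 and no gene at an unadjusted p below 0.05. Drd1 had -0.36, 0.32 and -0.10 in LPS stressed libraries, against 0.22, -0.20 and -0.02 in saline stressed libraries, a difference of -0.05 (SE 0.23). The preprodynorphin gene Pdyn differed by 0.16 (SE 0.27), and the substance P precursor gene Tac1 by -0.37 (SE 0.31), both with overlapping groups. The Tac1 difference was -0.18, -0.82 and -0.10 without LPS stressed replicates 1, 2 and 3 in turn.

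The list of projection neuron and dopamine signalling genes lay lower as a whole. All 16 tested genes, of 24 in the table, had a lower LPS stressed mean, with a median of -0.23; 2 reached an unadjusted limma p below 0.05, beside 1.65% of all genes lower at that threshold, and 3 had all LPS stressed libraries below all saline stressed ones, beside 3.01% of all genes. Rxrg, a retinoid receptor gene, had levels of -1.25, -0.28 and -0.45 in LPS stressed libraries, against 0.12, 0.18 and -0.30 in saline stressed libraries. The difference was -0.66 (SE 0.26; limma, unadjusted p = 0.025), and it was -0.36 without LPS stressed replicate 1, the lowest library. Ppp1r1b, which encodes DARPP-32, the phosphatase inhibitor through which dopamine receptors act on projection neurons, had -0.74, -0.24 and -0.42 in LPS stressed libraries, against 0.21, -0.01 and -0.21 in saline stressed libraries. Its groups did not overlap, and its difference was -0.47 (SE 0.21; limma, unadjusted p = 0.048), or -0.33 without LPS stressed replicate 1. Without that library neither gene reached an unadjusted limma p below 0.05, with 0.13 for Rxrg and 0.175 for Ppp1r1b. Without LPS stressed replicate 3 the unadjusted limma p was 0.021 for Rxrg and 0.066 for Ppp1r1b. The list median was -0.15 without LPS stressed replicate 1 and -0.29 without replicate 3.

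**Figure D3:**
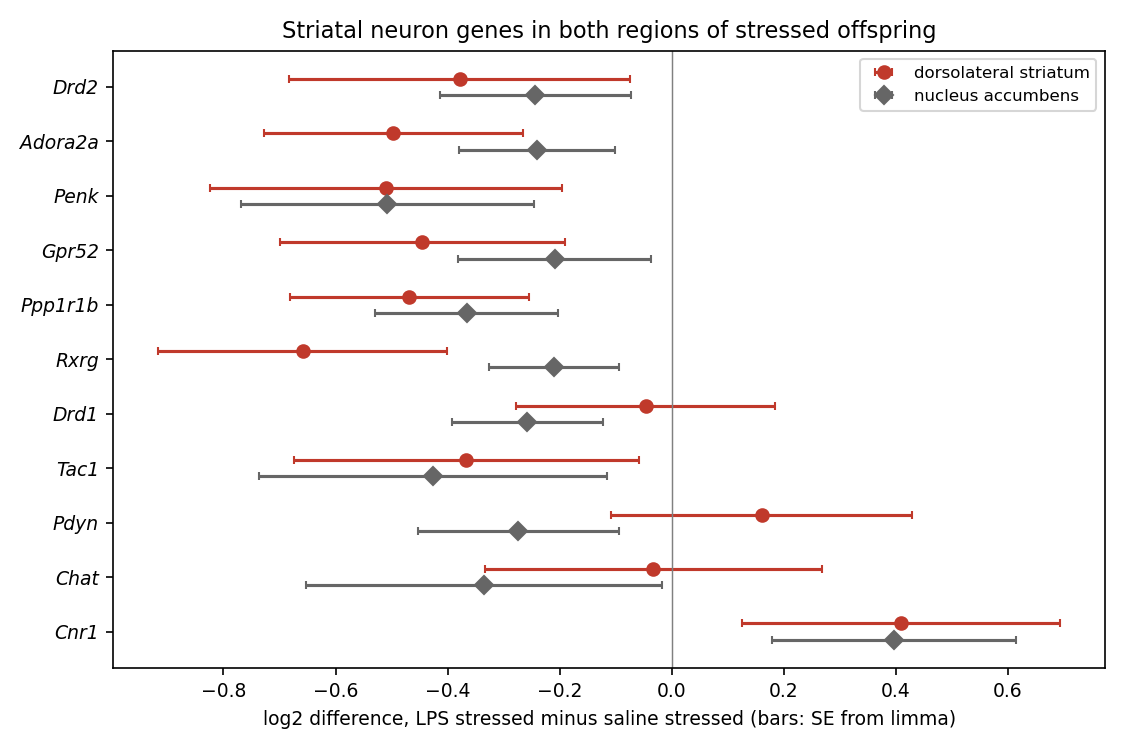
Log2 difference between LPS stressed and saline stressed libraries (horizontal axis, bars are the SE from limma) for 11 striatal neuron genes in dorsolateral striatum (red) and nucleus accumbens (grey). Both regions lay below 0 for Drd2, Adora2a, Penk, Gpr52, Ppp1r1b, Rxrg, Drd1, Tac1 and Chat, above 0 for Cnr1, and on opposite sides for Pdyn.

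In the nucleus accumbens the same comparison gave 0 of 10616 genes (0%) at an adjusted p below 0.05 by limma, with 225 (2.12%) at an unadjusted p below 0.05, and the difference between the regions gave 0 of 7667 (0%) after adjustment and 57 (0.743%) before it. There the 16 projection neuron and dopamine signalling genes had a median difference of -0.20, again with all 16 lower, and the 8 indirect-pathway genes a median of -0.19, with 6 lower. Ppp1r1b differed by -0.37 and Penk by -0.51 in that region. The direct-pathway list lay lower in the nucleus accumbens, with a median of -0.23, beside 0.09 in the dorsolateral striatum. The labels do not say whether the libraries of the 2 regions came from the same rats. Of the 109 higher genes that could be compared 83 lay higher in the nucleus accumbens, and of the 149 lower genes 125 lay lower, beside 4064 higher and 4967 lower of all 9031 genes compared. The differences of the 2 regions had a Pearson correlation of 0.41 across those genes, given as a description.

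Interneuron genes lay on both sides of 0, with 5 of 9 tested genes higher, 4 lower and a median of 0.02. Chat, the acetylcholine synthesis enzyme of cholinergic interneurons, differed by -0.03 (SE 0.30), and its listed locus overlaps 19 others. The opioid and endocannabinoid list had 5 of 10 tested genes higher and a median of -0.01. Cnr1, the cannabinoid receptor gene, had 0.72, 0.40 and 0.11 in LPS stressed libraries, against -0.03, 0.34 and -0.31 in saline stressed libraries, with overlapping groups.

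Astrocyte genes lay lower in LPS stressed libraries. Of 22 tested, 18 lay lower and 4 higher, with a median of -0.24; 4 reached an unadjusted limma p below 0.05, all lower, beside 1.65% of all genes, and none passed the adjusted test. Clu, the clusterin gene, had levels of -0.42, -0.69 and -0.31 in LPS stressed libraries, against 0.15, 0.08 and -0.23 in saline stressed libraries, a difference of -0.47 (SE 0.15; limma, unadjusted p = 0.0098), though its locus overlaps 1 other. F3, the tissue factor gene, had 596.4, 445.0 and 398.3 scaled fragments in LPS stressed libraries, against 851.5, 616.9 and 634.0 in saline stressed libraries. The groups of both genes were apart, and F3 also lay lower with LPS among unstressed offspring, by -0.60, beside -0.55 among stressed offspring. Gfap, the astrocytic intermediate filament gene, had -0.22, -0.51 and -0.05 in LPS stressed libraries, against -0.38, 0.49 and -0.11 in saline stressed libraries, with overlap. The list stood at -0.27, -0.34 and -0.02 in LPS stressed replicates 1 to 3, against 0.07, 0.15 and -0.22 in saline stressed replicates 1 to 3, and its median was -0.22 without LPS stressed replicate 1, -0.37 without LPS stressed replicate 3 and -0.13 without saline stressed replicate 2.

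Oligodendrocyte and myelin genes had 18 of 27 tested lower and a median of -0.12, which was 0.02 without LPS stressed replicate 1. Gal3st1, which makes the myelin lipid sulfatide, and Pllp, the plasmolipin gene, were the 2 members at an unadjusted p below 0.05, at -0.37 (SE 0.16) and -0.29 (SE 0.13), beside 1.65% of all genes lower at that threshold. Mbp, myelin basic protein, differed by -0.04 (SE 0.27). Oligodendrocyte precursor genes had 8 of 10 lower and a median of -0.09, which was 0.02 without LPS stressed replicate 1 and -0.20 without replicate 3.

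**Figure D4:**
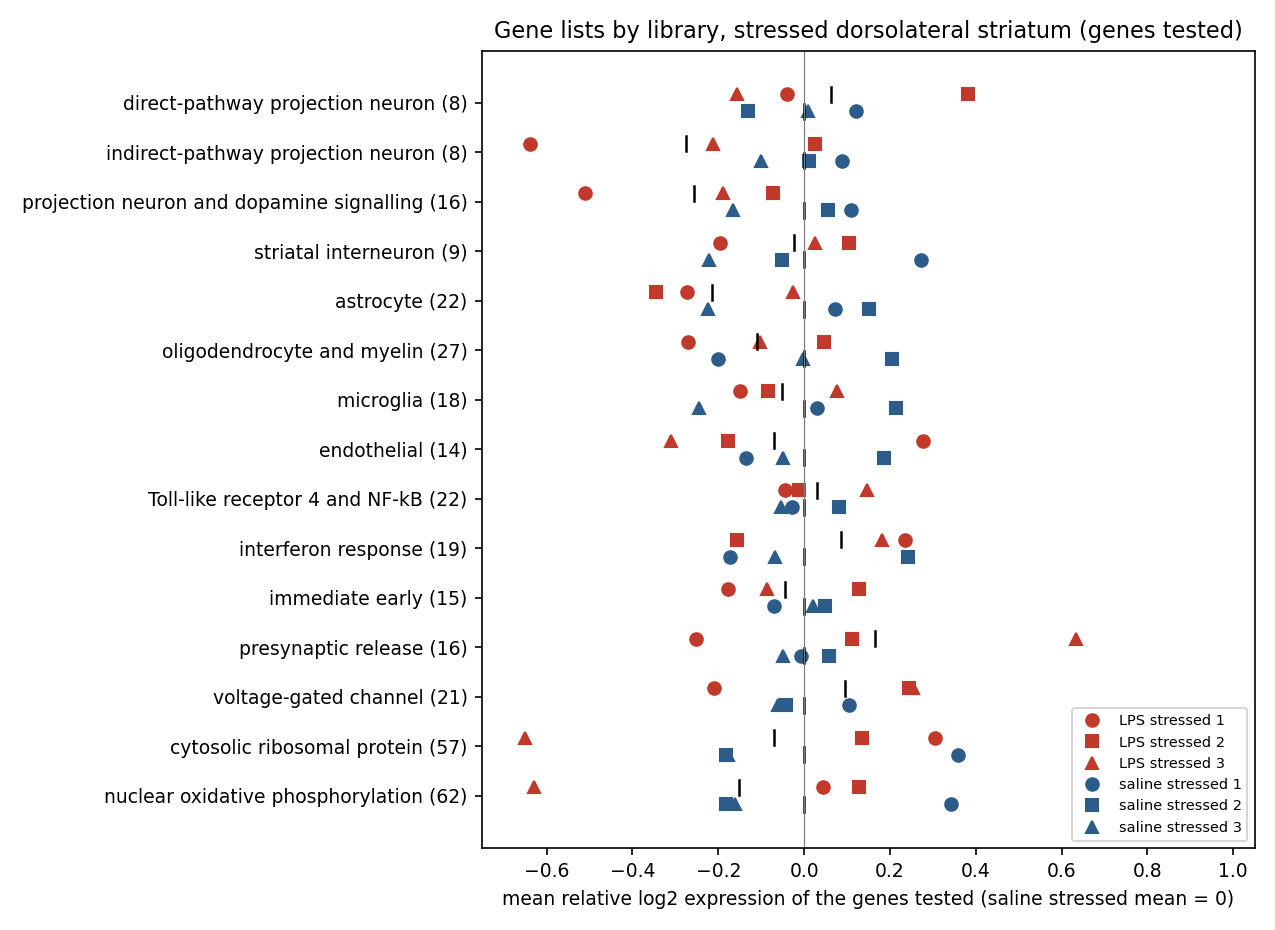
Mean relative log2 expression (horizontal axis, saline stressed mean set to 0) over the tested genes of 15 lists, whose number is in brackets, in the 6 stressed dorsolateral striatum libraries. Symbols are libraries and black ticks group means; LPS stressed 1 was lowest for the indirect-pathway list at -0.64, and LPS stressed 3 was highest for presynaptic release at 0.63 and lowest for ribosomal protein genes at -0.65.

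Microglial genes showed no shared direction in the dorsolateral striatum, with 7 of 18 tested genes higher, 11 lower and a median of -0.05. Aif1, a microglial cytoskeletal gene, had 0.26, -0.08 and -0.94 in LPS stressed libraries, against 0.38, close to 0, and -0.37 in saline stressed libraries, with overlap. Lyve1, which in brain marks perivascular macrophages, was the only gene of the list at an unadjusted p below 0.05. It had 64.3, 65.8 and 53.0 scaled fragments in LPS stressed libraries, against 106.2, 122.8 and 88.0 in saline stressed libraries, a log2 difference of -0.79 (SE 0.27; limma, unadjusted p = 0.013). All 3 LPS stressed libraries lay below all 3 saline stressed ones, and Lyve1 lay lower with LPS among unstressed offspring as well, by -0.67.

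Lists of vascular and meningeal cells had medians close to 0 that moved with LPS stressed replicate 1. Endothelial genes had 8 of 14 higher and a median of 0.01, which was -0.19 without LPS stressed replicate 1 and 0.09 without replicate 3. Pericyte and smooth muscle genes had 4 of 10 higher and a median of -0.05, or -0.14 without LPS stressed replicate 1 and 0.02 without replicate 3. Leptomeningeal and fibroblast genes had 4 of 10 higher and a median of -0.06, or -0.12 without LPS stressed replicate 1 and -0.07 without replicate 3. Kcnj8, a potassium channel gene of brain pericytes, had -0.45, -0.52 and -0.92 in LPS stressed libraries, against -0.20, 0.35 and -0.15 in saline stressed libraries, with no overlap and a difference of -0.63 (SE 0.25). The fibroblast gene Islr differed by -0.41 (SE 0.18), and Tagln, a smooth muscle gene, by 0.48 (SE 0.25). The 3 tested red blood cell genes all lay lower, with a median of -0.56, which was -0.35 without LPS stressed replicate 3. Hba1, an alpha globin gene, had -0.31, -0.50 and -1.12 in LPS stressed libraries, against 0.25, -0.10 and -0.15 in saline stressed libraries, and its difference was -0.64 with LPS stressed replicate 3 and -0.41 without it. Hba1 and Hba2 are near-identical copies whose reads may be shared.

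Genes of the innate immune pathway that LPS engages lay close to their saline stressed levels. Of 22 tested genes of the Toll-like receptor 4 and NF-kB list, 14 lay higher and 8 lower, with a median of 0.05. Tlr4, the receptor itself, had 11, 15 and 26 fragments in LPS stressed libraries, against 12, 14 and 15 in saline stressed libraries, and its log2 difference was 0.12 (SE 0.32). With so few fragments and such an SE, a moderate change of Tlr4 was not detectable at this depth. Nfkbib, an inhibitor of NF-kB, was the only gene of the list at an unadjusted p below 0.05. It had -0.40, -0.21 and -0.50 in LPS stressed libraries, against 0.14, -0.01 and -0.14 in saline stressed libraries, a difference of -0.37 (SE 0.14; limma, unadjusted p = 0.021). Among unstressed offspring the LPS difference of Nfkbib was 0.37, and the difference between these differences was -0.74 (limma, unadjusted p = 0.0027, adjusted p of at least 0.829). Nfkb1, a subunit of NF-kB, differed by 0.29 (SE 0.15).

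Cytokine and cytokine receptor genes had 7 of 15 tested higher, 8 lower and a median of -0.04. Il1a, interleukin-1 alpha, had 17, 11 and 22 fragments in LPS stressed libraries, against 7, 11 and 13 in saline stressed libraries. After scaling by depth its LPS stressed libraries lay between 16.8 and 22.8 and its saline stressed libraries between 13.0 and 15.5, without overlap, and the log2 difference was 0.54 (SE 0.28; limma, unadjusted p = 0.072). Csf1, a growth factor of microglia, had 0.39, 0.20 and 0.28 in LPS stressed libraries, against -0.34, 0.17 and 0.18 in saline stressed libraries. Tnf and Il6, chosen after their values were seen, could not be compared on digits. Tnf had 7, 8 and 7 fragments, not scaled by depth, in LPS stressed libraries, against 6, 12 and 7 in saline stressed libraries. Il6 had 0, 2 and 0 fragments in LPS stressed libraries, against 0, 2 and 1 in saline stressed libraries, too few to show a difference.

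**Figure D5:**
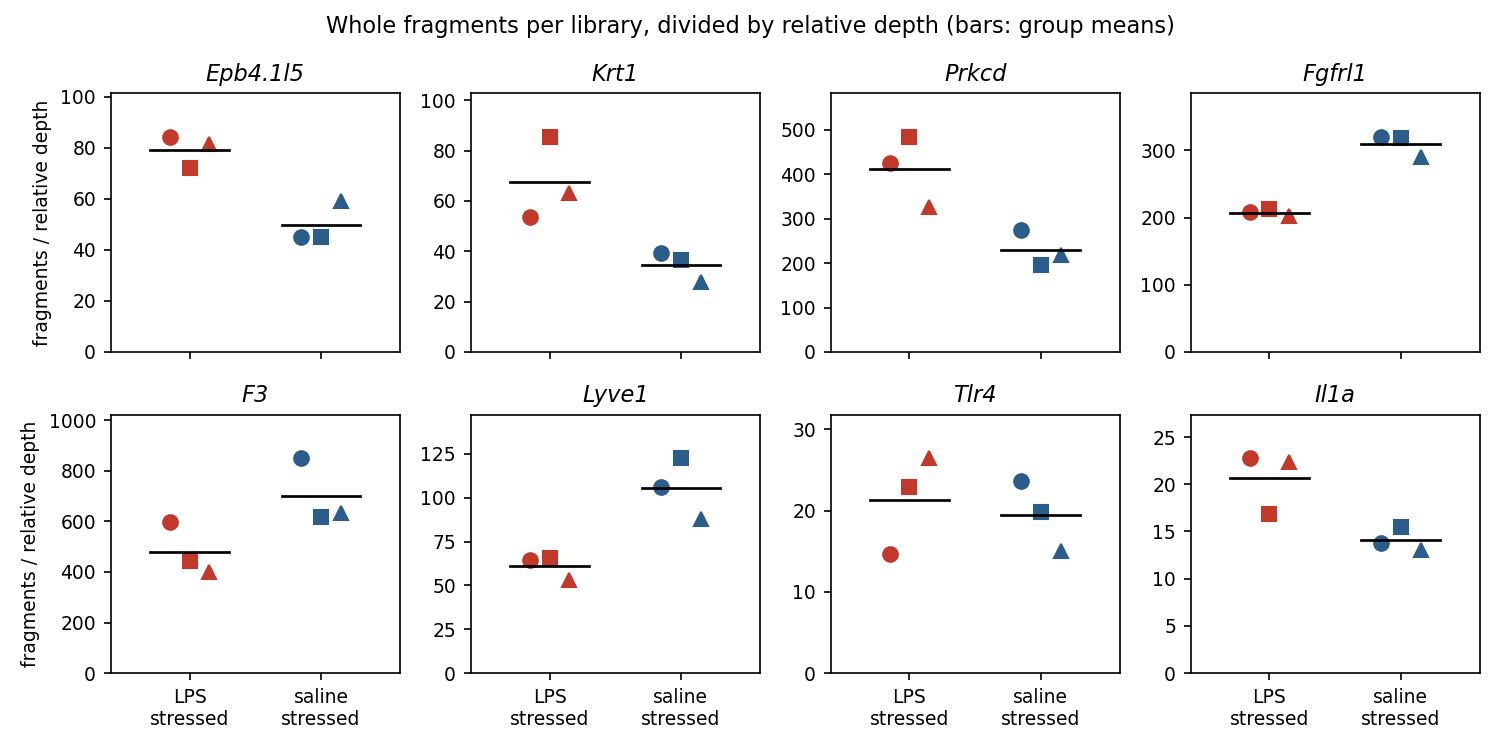
Whole fragments divided by relative depth (vertical axis from 0) for 8 genes in the 3 LPS stressed (red) and 3 saline stressed (blue) dorsolateral striatum libraries; bars are group means. Groups were apart in every panel except Tlr4, where LPS stressed libraries ran from 14.7 to 26.5 and saline stressed libraries from 15.0 to 23.6.

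Complement and antigen presentation genes had 8 of 16 tested higher and a median of -0.02. C1qc and C1qb, subunits of the complement initiator C1q, differed by -0.40 (SE 0.26) and -0.25 (SE 0.20) among stressed offspring, and by 0.49 and 0.45 among unstressed offspring. Interferon response genes had 14 of 19 higher and a median of 0.10, which was 0.01 without LPS stressed replicate 3 and -0.03 without replicate 1. Ifngr2, an interferon gamma receptor subunit, differed by 0.25 (SE 0.16).

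Genes of the stress axis were likewise divided. The corticosteroid receptor and responsive list had 9 of 16 tested genes higher, 7 lower and a median of 0.06. The glucocorticoid receptor gene Nr3c1 differed by -0.08 (SE 0.19), with a locus overlapping 4 others, and the chaperone gene Fkbp5, a textbook glucocorticoid target, by -0.06 (SE 0.18). Hsd11b1, the enzyme that regenerates active glucocorticoid, had -0.81, -0.31 and -0.72 in LPS stressed libraries, against 0.53, 0.01 and -0.54 in saline stressed libraries, a difference of -0.61 (SE 0.25; limma, unadjusted p = 0.030). Saline stressed replicate 3 overlapped the LPS stressed libraries. Sgk1, a glucocorticoid-induced kinase, had 0.63, 0.07 and 0.94 in LPS stressed libraries, against 0.46, -0.17 and -0.29 in saline stressed libraries, with overlap.

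Immediate early genes, which report recent neuronal activity, had 7 of 15 tested higher, 8 lower and a median of -0.17 that was 0.07 without LPS stressed replicate 1. Nr4a1, the orphan nuclear receptor with 4 TGACG cores in its promoter window, had -0.68, -0.23 and -0.64 in LPS stressed libraries, against 0.04, 0.10 and -0.14 in saline stressed libraries. Fos had 233, 223 and 252 fragments in LPS stressed libraries, against 196, 287 and 429 in saline stressed libraries of different depth, and a log2 difference of -0.43 (SE 0.26). After depth all 3 LPS stressed libraries lay below the saline stressed ones for both genes, and neither reached an unadjusted limma p below 0.05, with 0.066 for Nr4a1 and 0.13 for Fos. Fosb lay in the other direction, at 0.21, 0.54 and 0.83 in LPS stressed libraries, against -0.55, 0.08 and 0.47 in saline stressed libraries.

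Presynaptic release and voltage-gated channel genes lay slightly higher. For the presynaptic genes LPS stressed replicate 3, the library with the most cortical marker fragments, was the highest library. Presynaptic release genes had 13 of 16 tested higher and a median of 0.16. The list stood at -0.25, 0.11 and 0.63 in LPS stressed replicates 1 to 3, against -0.01, 0.06 and -0.05 in saline stressed libraries. LPS stressed replicate 1 was thus the lowest of the 6 libraries. Without LPS stressed replicate 3 the median was 0.03, and without LPS stressed replicate 1 it was 0.39. Syn1, a synaptic vesicle gene whose locus overlaps 2 others, had -0.08, 0.27 and 1.19 in LPS stressed libraries, against -0.15, 0.10 and 0.05 in saline stressed libraries. Its difference of 0.46 was 0.09 without LPS stressed replicate 3. Pclo, the piccolo gene of the active zone, behaved alike, at 0.36 with that library and 0.05 without it. Voltage-gated channel genes had 16 of 21 higher and a median of 0.12. That median was 0.04 without LPS stressed replicate 3 and 0.02 without replicate 2. Cacna1b, a presynaptic calcium channel subunit, differed by 0.47 (SE 0.22), and by 0.22 without LPS stressed replicate 3.

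Among the remaining neuronal lists, glutamate receptor and postsynaptic genes had 14 of 24 higher and a median of 0.06, which was 0.17 without LPS stressed replicate 1 and -0.14 without replicate 3. GABA receptor and synthesis genes had 5 of 11 higher and a median of -0.02. Serotonin and noradrenaline receptor genes had 5 of 9 higher and a median of 0.06. Neurotrophin and growth factor genes had 8 of 11 lower and a median of -0.19, which was -0.07 without LPS stressed replicate 1 and -0.03 without saline stressed replicate 2. Ret, a receptor for glial cell line-derived neurotrophic factor ligands, had -1.14, -0.62 and 0.01 in LPS stressed libraries, against 0.01, 0.37 and -0.38 in saline stressed libraries. Its difference was -0.58 (SE 0.27), and -0.30 without LPS stressed replicate 1. The 2 tested cortical and pallial neuron genes gave a median of -0.03, since the markers that differed most between libraries fell outside the 3.162-fold range.

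Ribosomal protein and oxidative phosphorylation genes varied between libraries by more than the groups differed. The 57 tested cytosolic ribosomal protein genes stood at 0.30, 0.14 and -0.65 in LPS stressed replicates 1 to 3, against 0.36, -0.18 and -0.18 in saline stressed replicates 1 to 3. The 62 oxidative phosphorylation genes stood at 0.04, 0.13 and -0.63 in LPS stressed libraries, against 0.34, -0.18 and -0.16 in saline stressed libraries. LPS stressed replicate 3 was lowest for both lists. The medians, -0.12 and -0.17, became 0.22 and 0.08 without it, so the direction of both rested on that library. Atp5a1, a subunit of ATP synthase, was the only one of these genes at an unadjusted p below 0.05, with -0.40, -0.43 and -0.25 in LPS stressed libraries, against 0.15, 0.01 and -0.16 in saline stressed libraries.

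Over the fits that leave out 1 library in turn, the median stayed on 1 side of 0 for 9 of 33 lists, among them the indirect-pathway, projection neuron and dopamine signalling, astrocyte, red blood cell, presynaptic and channel lists, and took both signs for 24.

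The other lists held no gene at an unadjusted p below 0.05. The circadian clock list had 6 of 12 higher and a median of 0.01, the heat shock and chaperone list 12 of 22 higher and a median of 0.03, the extracellular matrix and perineuronal net list 7 of 18 higher and a median of -0.07, and the chromatin and DNA methylation list 11 of 22 higher and a median of -0.0045.

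Genes listed as 1 could not be compared by ratio. Of 17303 genes, 3293 were listed as 1 in all 6 stressed dorsolateral striatum libraries and 12237 were above 1 in all 6. Only 6 genes were listed as 1 in all 3 LPS stressed libraries and above 1 in all 3 saline stressed libraries. Among them were Apoc2, an apolipoprotein gene, and Ovol1, a transcription factor gene. The reverse held for 9 genes, among them Kcnv2, a potassium channel subunit with 1, 4 and 1 fragments in the LPS stressed libraries, Ms4a2, a mast cell receptor subunit with 2, 1 and 1 fragments, and Siah3 with 2, 1 and 5 fragments. These counts sit at or just above the limit of detection, and no fold was computed from them.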

How the data were processed

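Bulk dorsolateral striatum and nucleus accumbens tissue was profiled by strand-specific poly(A) RNA-seq (NEBNext Ultra Directional), per the labels' protocols. The authors deposited 1 table of FPKM values, used here as a score because its decimal point is lost and up to 6 digits remain. The submitters' processing notes name STAR 2.6.25.17 and Cuffdiff 2.2.1. Genome build and annotation: not given in the sources used here. Replicates were numbered in accession order.

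Within a gene the digits give ratios up to powers of 10, so log10 values were placed on a circle and a gene was used where all 12 libraries of the region were above 1 and within an arc of 0.5 decades (3.162-fold). Of genes above 1 in all 12, 76.7% were used. Differences were tested with limma 3.58.1 (R 4.3.3; 4 group means over 12 libraries, 8 residual degrees of freedom, two-sided, Benjamini-Hochberg over all genes tested, threshold 0.05). The interaction and both regions were tested in the same way. Absolute depth is unknown. Relative depth and whole fragments were recovered from the steps of low values (Python 3.11.15, numpy 2.4.6), for 55.3% of the genes above 1 in all 12 libraries, and intervals from them would cover counting error only. Limma-voom on these fragments was added after seeing the data. The fit was checked on simulated data.

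Named genes were the 12 higher and 12 lower with the smallest p, plus the members with the smallest p of each of 34 gene lists and a fixed panel. Some of these genes are not reported here. The comparison to describe, its lists and its named genes were chosen with earlier results of these data known; the libraries enter it by their labels. Lists were not tested as sets. Alternatives were another arc, centring, fewer libraries, library weights, a robust fit, a ribosomal covariate and leaving out each library.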

Additional observations from a re-analysis of the deposited data

How the results depend on the processing

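No gene passed limma's adjusted threshold of 0.05 under any of the 22 settings. The count at an unadjusted p below 0.05, 271 of 9275 genes, became 713 with library weights, 695 with the ribosomal mean as a covariate and 137 of 5858 by voom on recovered fragments; the cause was not tested. It ranged from 113 without saline stressed replicate 1 to 493 without saline stressed replicate 3, and was 419 without LPS stressed replicate 1. Of 17303 genes, 15 were listed as 1 in all libraries of either stressed group and above 1 in all of the other. That number was 498 where 2 of 3 libraries sufficed. No paired analysis was possible because the labels give no replicate numbers shared between groups.

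Of 1389 values of 74 named genes under alternatives, 1367 kept their direction and side of the threshold and 22, in 10 genes, reversed sign. Much of that count was fixed in advance. Another arc, a robust fit, only the 6 stressed libraries, or leaving out an unstressed library cannot change a gene's difference. The side of the threshold could not vary either, since no gene passed it under any setting. With library weights Tac1 was 0.28, Penk 0.082, Drd1 0.21, Chat 0.23, Fkbp5 0.093, Aif1 0.035 and Mbp 0.13, and by voom Chat was 0.028. The other reversals came from leaving out 1 library. Over those fits Drd1 ranged from -0.23 to 0.11, Chat from -0.20 to 0.21, Fkbp5 from -0.20 to 0.082, Mbp from -0.23 to 0.12, Aif1 from -0.51 to 0.087, Tlr4 from -0.057 to 0.37, Nr3c1 from -0.24 to 0.068 and Pdyn from -0.089 to 0.53. Of 626 list medians 619 moved by less than the spread between libraries, though a robust fit or leaving out an unstressed library could not move them.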

Other observations

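Recovered fragments allowed 1464 genes to be compared that could not be compared on digits. By limma-voom 49 of them (3.35%) had an unadjusted p below 0.05, 20 higher and 29 lower in LPS stressed libraries. That share was 2.34% over all 5858 genes of the fit. After adjustment 0 passed limma-voom's test, and the smallest adjusted p over all 5858 genes was 0.9999. For the 4394 genes in both fits the differences had a Pearson correlation of 0.973 across genes. Both fits start from the same deposited digits, so a high correlation was largely fixed in advance. The search for fragments stopped at 800 in a library, so genes with more are not covered. Traf6 and Npas4 were named after their values were seen. Traf6, a signalling adaptor downstream of Toll-like receptors, had 15, 13 and 54 fragments in LPS stressed libraries, against 7, 13 and 13 in saline stressed libraries, with LPS stressed replicate 3 the highest. Npas4, a neuron-specific immediate early gene, had 99, 148 and 176 fragments in LPS stressed libraries, against 81, 169 and 206 in saline stressed libraries. The fragments of both genes are not scaled by relative depth. That depth ran from 0.509 in saline stressed replicate 1 to 1 in saline stressed replicate 3. The raw numbers therefore do not show whether the groups overlapped.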
